A study of Mus musculus with 6 samples.

Results

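The genes described here are 9 genes of fatty acid uptake, lipid storage and lipid breakdown, picked by symbol from a table of 55401 genes: Cd36, Fabp4, Fabp5, Lpl, Lipa, Plin2, Plin3, Dgat1 and Pparg. All 9 had 1 row each in the table, and all 9 were among the 16256 genes with enough counts to test. The 6 RNA libraries come from macrophages that were grown from mouse bone marrow in the cytokine M-CSF. The marrow came from C57BL/6 mice and was grown for 7 days with 40 ng/mL M-CSF and 10% serum before a treatment left unnamed in the labels. The WT group holds 3 libraries labelled wild type and the KO group 3 libraries labelled Mettl3-/-, meaning loss of METTL3, which is the methyltransferase that makes N6-methyladenosine in messenger RNA. The labels name no Cre, promoter or age, and do not say whether the replicates are separate mice or cultures, so the p-values reflect nothing beyond the spread among these libraries, which may be technical.

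Macrophages take up fatty acids directly and as part of lipoproteins, carry them through the cytosol on binding proteins, and store what they do not burn as triglyceride and sterol ester in lipid droplets. CD36 is a surface receptor for long-chain fatty acids and oxidized lipoproteins, FABP4 and FABP5 are cytosolic carriers, and the perilipins PLIN2 and PLIN3 coat the droplets. The nuclear receptor PPAR gamma, encoded by Pparg, senses fatty acids and pairs with RXR on DNA, and Cd36, Fabp4, Lpl and Plin2 are known targets of it. Macrophages that fill with such droplets are the foam cells of the arterial wall.

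The library totals ran from 67280390 to 77997742 estimated counts, and between 149 and 131704 of them belonged to any 1 of the 9 genes in a library. Mettl3 itself did not follow the label: it read 2.62, 2.91 and 2.26 FPKM (fragments scaled to transcript length and library size) in WT and 2.504, 2.56 and 2.93 FPKM in the libraries labelled KO. The log2 fold change was 0.02 (SE 0.11, edgeR adjusted p = 0.93). Of the exonic bases of Mettl3, 18.4% are shared with Tox4 on the opposite strand, at 17.7 and 18.8 FPKM, and the values do not tell exons apart. Directions below are therefore those of "the libraries labelled KO". The macrophage markers were high in every library, with Cd68 at 780 FPKM in WT against 757 FPKM in labelled KO and Csf1r at 569 and 687 FPKM. Of the 7 macrophage markers, 3 were called higher (Csf1r, Mertk and Fcgr1) and 2 lower (Adgre1 and Lyz2), with Cd68 and Itgam not called; the summed list read 16300 to 16600 FPKM in WT and 8310 to 8400 FPKM in labelled KO, most of it Lyz2.

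Lower transcript levels in the libraries labelled KO were called for 7 of the 9 genes and higher levels for 0. The calls were made at a Benjamini-Hochberg adjusted p under 0.05 in edgeR's quasi-likelihood test, over all tested genes; 5.67% of all tested genes were called lower by that rule and 7.01% higher. The FPKM values of the 2 groups did not overlap for the same 7 genes, a pattern that 14.6% of all tested genes showed in the lower direction. For each of the 7 the exact two-sided permutation p over libraries was 0.1, the smallest that 3 against 3 libraries can give. The median log2 fold change of the 9 genes was -0.20, against -0.0049 over all tested genes. The 9 genes were chosen with earlier results of these data known, so these comparisons with all tested genes describe and do not test. The sizes differed widely, from Pparg and Cd36, at 0.456 and 0.507 of the WT level, to Fabp5, at 0.949 of it. In 5 genes, Pparg, Cd36, Fabp4, Plin2 and Lipa, the call held in each of the 14 alternative fits, and in the other called genes, Fabp5 and Lpl, it did not.

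**Figure D1:**
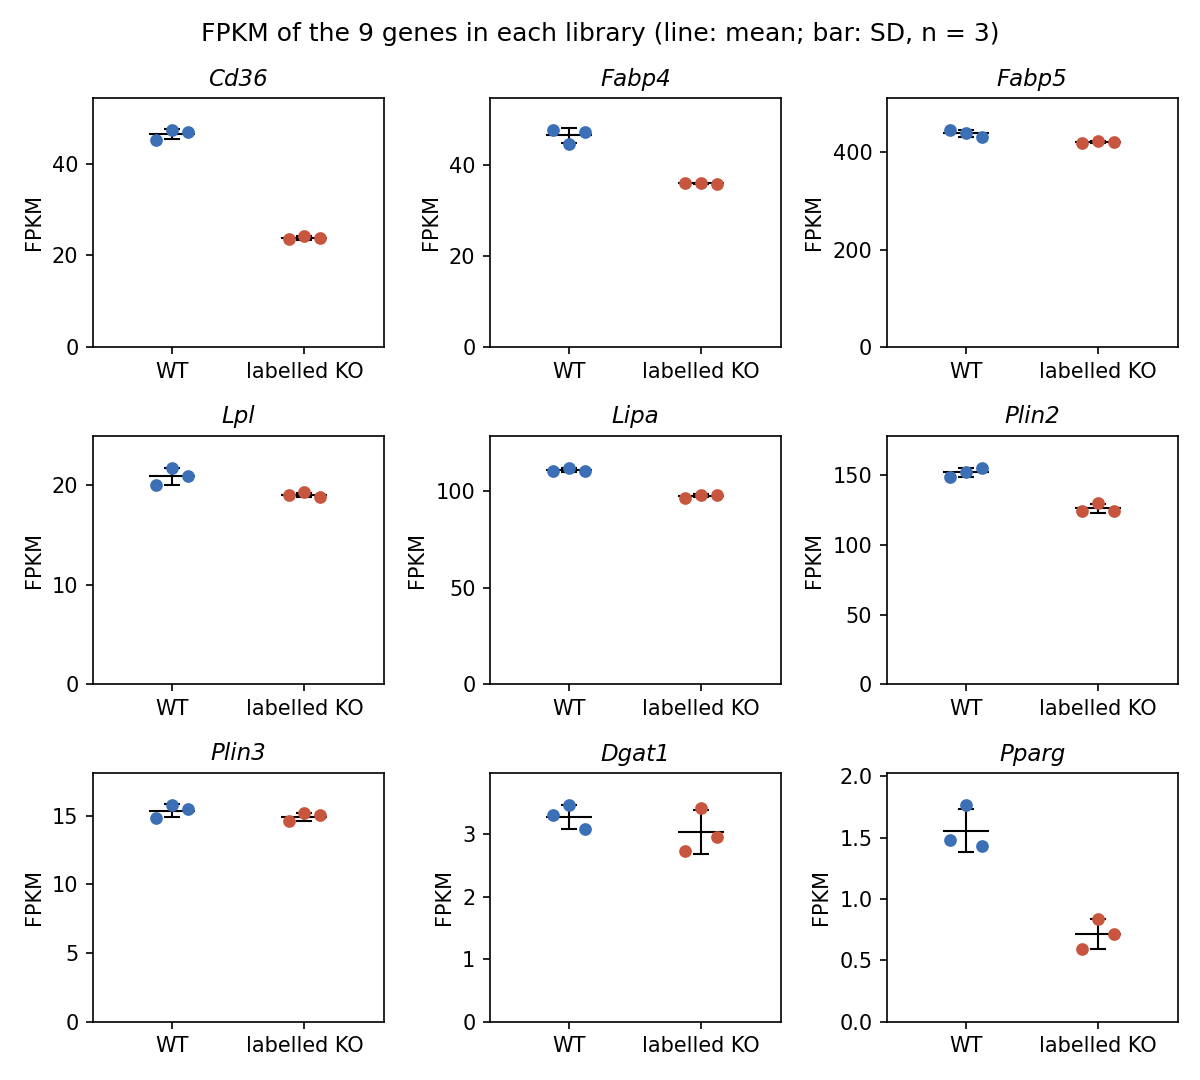
FPKM of each of the 9 genes (vertical axis, from 0) in the 3 WT libraries (blue points) and the 3 libraries labelled KO (red points), with a line at the mean and a bar for the SD. The groups are far apart for Cd36 and Pparg, close but separate for Fabp5 and Lpl, and overlapping for Plin3 and Dgat1.

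The promoters of 5 of the 9 genes were given by RefSeq on GRCm38.p6, the same build as mm10, as windows from 250 bases before to 50 bases after a transcription start: Cd36, Plin2, Plin3, Lipa and, with 3 starts, Pparg. Entries for Fabp4, Fabp5, Lpl and Dgat1 were not used here. The windows were searched on both strands for AGGTCA, the core motif of nuclear receptors, for 2 copies of it in the same direction with 1 base of any kind between them (known from PPAR gamma with RXR), for 2 copies with 4 bases between them (known from the sterol receptor LXR) and for TATAAA. The core motif also lies inside each repeat. No window given for these 5 genes held either repeat, which 0.0396% and 0.0152% of all 32851 promoter windows hold. Repeats that rare would seldom be met in so few windows, so their absence is not informative. The core motif was in 4 of the 7 windows, those of Cd36, Plin2 and 2 of the 3 starts of Pparg, and 16.3% of all windows hold it. Those 4 windows are shown because they hold the core motif. These 3 genes were all called lower in the libraries labelled KO. The windows are chr5:17835847-17836146 on the minus strand for Cd36, chr4:86670010-86670309 on the minus strand for Plin2, and chr6:115360894-115361193 and chr6:115362099-115362398 on the plus strand for Pparg. They are written 5′ to 3′ along the gene, with the core motif in capitals; in Cd36 and Plin2 it lies on the other strand and reads as its reverse complement.
Cd36: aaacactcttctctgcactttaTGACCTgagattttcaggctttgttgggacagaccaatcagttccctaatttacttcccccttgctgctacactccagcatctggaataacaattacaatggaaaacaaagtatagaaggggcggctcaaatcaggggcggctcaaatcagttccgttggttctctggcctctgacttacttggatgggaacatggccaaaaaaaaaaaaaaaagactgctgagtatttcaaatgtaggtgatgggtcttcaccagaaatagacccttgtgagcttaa
Plin2: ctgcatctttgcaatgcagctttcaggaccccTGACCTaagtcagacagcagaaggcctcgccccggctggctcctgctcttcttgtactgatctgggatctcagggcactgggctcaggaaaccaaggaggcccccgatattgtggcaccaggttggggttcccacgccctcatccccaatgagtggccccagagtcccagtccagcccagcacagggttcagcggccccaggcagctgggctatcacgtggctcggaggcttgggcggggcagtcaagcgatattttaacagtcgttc
Pparg, first start: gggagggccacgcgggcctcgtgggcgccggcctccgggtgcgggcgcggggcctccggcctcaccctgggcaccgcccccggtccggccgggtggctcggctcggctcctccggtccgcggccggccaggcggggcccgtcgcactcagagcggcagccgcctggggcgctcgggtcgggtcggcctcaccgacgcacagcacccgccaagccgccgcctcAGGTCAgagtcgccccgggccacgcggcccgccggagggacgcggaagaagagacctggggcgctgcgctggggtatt
Pparg, second start: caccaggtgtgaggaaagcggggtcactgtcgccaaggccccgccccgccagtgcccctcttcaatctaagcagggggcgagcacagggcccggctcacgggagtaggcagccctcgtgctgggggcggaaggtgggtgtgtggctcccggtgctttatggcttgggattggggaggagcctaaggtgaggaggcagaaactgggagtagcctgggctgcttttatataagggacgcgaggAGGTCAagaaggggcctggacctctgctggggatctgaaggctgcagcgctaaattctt
Counted from the start, the core motif's leftmost letter lies at position -228 in Cd36, at -218 in Plin2, and at -28 and -9 in the Pparg windows. The second Pparg window also holds TATAAA, on the other strand at position -29, a motif in 13.6% of all windows. Lipa, which was called lower too, holds TATAAA but no core motif, and Plin3, which was not called, holds neither; a match is a description of letters and not of binding. The windows differ in composition, with 43.0% G or C in Cd36 and 80.3% in the first window of Pparg. The Cd36 window lies inside the gene as annotated, which runs to 17888801 on the minus strand. Any start of Cd36 further upstream was not searched.

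Pparg, which encodes the nuclear receptor PPAR gamma, had the lowest log2 fold change and the lowest level of the 9 genes. It lies on the plus strand of chromosome 6, from 115360951 to 115490399 (ENSMUSG00000000440), and its values are totals over all starts, so the isoforms cannot be told apart. Pparg read 1.48, 1.76 and 1.43 FPKM in WT against 0.592, 0.838 and 0.719 FPKM in labelled KO. Every labelled KO library was below every WT library, with a gap of 38.3% of the WT mean between the nearest values. The means were 1.56 ± 0.178 and 0.716 ± 0.123 FPKM (SD, n = 3 each). Pparg changed by -1.13 on the log2 scale (SE 0.17, edgeR adjusted p = 0.00738), a ratio of 0.456 with 95% limits of 0.332 and 0.627. The estimated counts behind it were 331, 399 and 327 in WT and 149, 191 and 187 in labelled KO, the fewest of the 9 genes, and the coefficients of variation between replicates, 11.4% and 17.1%, were the largest in each group. With limma on log2(FPKM + 1) the change of Pparg was -0.58 (adjusted p = 0.00963), as a pseudocount of that size is near its level. Of all called genes, 43 had a lower log2 fold change than Pparg.

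Cd36, the fatty acid receptor at the cell surface, was near 0.5 of its WT level in the libraries labelled KO, with little spread between replicates. The gene lies on the minus strand of chromosome 5, from 17781690 to 17888801 (ENSMUSG00000002944). Cd36 read 45.3, 47.4 and 47.0 FPKM in WT against 23.6, 24.3 and 23.7 FPKM in labelled KO. The groups were separated by 45.2% of the WT mean, the widest gap among the 9 genes. The means were 46.6 ± 1.09 and 23.9 ± 0.380 FPKM (SD, n = 3 each). Cd36 changed by -0.98 on the log2 scale (SE 0.031, edgeR adjusted p = 2.5e-05), a ratio of 0.507 with 95% limits of 0.477 and 0.538. Leaving out any 1 library moved the change of Cd36 only between -1.0 and -0.97. Its depth was 6702 to 13022 estimated counts per library, and 74 called genes had a lower log2 fold change.

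Of the cytosolic carriers, Fabp4 fell to 0.764 of its WT level and Fabp5 to 0.949. Both lie on chromosome 3, Fabp5 from 10012548 to 10016607 on the plus strand and Fabp4 from 10204088 to 10208576 on the minus strand, 187480 bases apart. Of the genes between them, the related carrier genes Pmp2 and Fabp9 had a count of 0 in all 6 libraries. Fabp4 (ENSMUSG00000062515), the carrier first known from fat cells, read 47.6, 44.7 and 47.4 FPKM in WT against 36.0, 36.1 and 35.9 FPKM in labelled KO. The labelled KO libraries were nearly alike and all below WT. Fabp4 changed by -0.39 on the log2 scale (SE 0.031, edgeR adjusted p = 0.000689), a ratio of 0.764 with 95% limits of 0.721 and 0.811. Fabp5 (ENSMUSG00000027533), first known from skin, was the most abundant of the 9 genes, with only 82 tested genes above it in mean FPKM. It read 445, 441 and 432 FPKM in WT against 419, 425 and 421 FPKM in labelled KO. The groups did not overlap, but the nearest values were only 1.65% of the WT mean apart. Fabp5 changed by -0.08 on the log2 scale (SE 0.015, edgeR adjusted p = 0.0203), a ratio of 0.949 with 95% limits of 0.923 and 0.976. Dropping any library except WT replicate 3 ended the call (edgeR adjusted p from 0.0535 to 0.0718), as did DESeq2 (adjusted p = 0.0789). The limma fits on FPKM did not call Fabp5 either.

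Within each library, Fabp4 was a smaller part of the carriers in labelled KO. Fabp4 made up 9.67%, 9.21% and 9.88% of the summed Fabp4 and Fabp5 FPKM in WT and 7.92%, 7.83% and 7.86% in labelled KO. All 3 labelled KO shares were below all 3 WT shares, with means of 9.59% ± 0.344 and 7.87% ± 0.0451 (SD, n = 3 each) and a difference of -1.72 percentage points. The exact two-sided permutation p was 0.1, the smallest possible, and 0.1 after adjustment over the 2 shares tested. FPKM sets genes on a scale per length, so Fabp5 was 9.44 times Fabp4 in WT and 11.7 times Fabp4 in labelled KO.

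**Figure D2:**
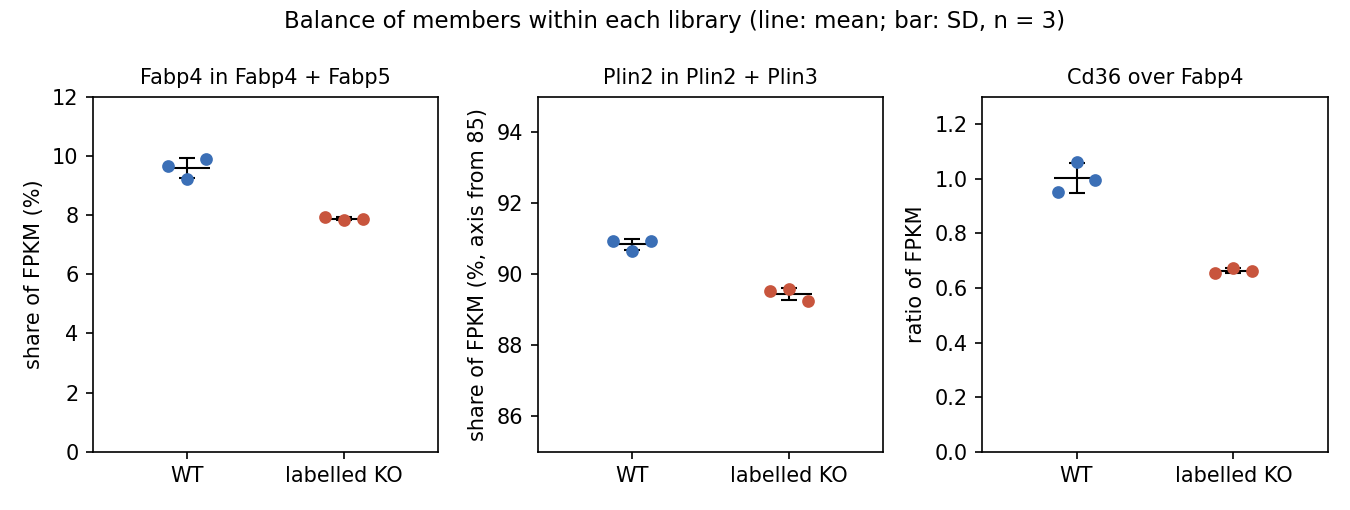
Within-library balance in the 3 WT libraries (blue) and the 3 labelled KO libraries (red), with a line at the mean and a bar for the SD. The left and middle panels give the share of Fabp4 in Fabp4 + Fabp5 and of Plin2 in Plin2 + Plin3 (percent of FPKM; the middle axis starts at 85), and the right panel the ratio of Cd36 to Fabp4 FPKM; the labelled KO points lie below the WT points in each.

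Both lipase genes were called lower by small amounts. Lipa encodes lysosomal acid lipase, which frees fatty acids and cholesterol from lipoproteins taken into the lysosome, and lies on the minus strand of chromosome 19, from 34492318 to 34527474 (ENSMUSG00000024781). Lipa read 110.5, 112.0 and 110.3 FPKM in WT against 96.7, 98.1 and 97.9 FPKM in labelled KO. The spread within groups was the smallest of any of the 9 genes in WT, with a coefficient of variation of 0.819%, and the groups were 11.1% of the WT mean apart. Lipa changed by -0.20 on the log2 scale (SE 0.015, edgeR adjusted p = 0.000569), a ratio of 0.869 with 95% limits of 0.844 and 0.895. Lpl encodes lipoprotein lipase, a secreted enzyme that releases fatty acids from circulating triglyceride, and lies on the plus strand of chromosome 8, from 68880491 to 68906934 (ENSMUSG00000015568). Lpl read 20.04, 21.8 and 21.0 FPKM in WT against 19.0, 19.3 and 18.9 FPKM in labelled KO. WT replicate 1 was the closest to the labelled KO values, and the groups were 3.51% of the WT mean apart. Lpl changed by -0.15 on the log2 scale (SE 0.035, edgeR adjusted p = 0.0362), a ratio of 0.90 with 95% limits of 0.842 and 0.962. Dropping any library except WT replicate 1 ended the call (edgeR adjusted p from 0.0782 to 0.105), as did fitting without the low count filter (edgeR adjusted p = 0.0558). The limma fits on FPKM did not call Lpl either.

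Of the droplet coat genes, Plin2 fell and Plin3 was not called. Plin2 encodes the perilipin that is bound to droplets in most tissues and is widely used as a marker of stored lipid. It lies on the minus strand of chromosome 4, from 86648386 to 86670060 (ENSMUSG00000028494). Plin2 read 149, 153 and 155 FPKM in WT against 124.5, 130.1 and 124.7 FPKM in labelled KO. Every labelled KO library was below every WT library, with means of 152 ± 3.36 and 126 ± 3.20 FPKM (SD, n = 3 each). Plin2 changed by -0.28 on the log2 scale (SE 0.026, edgeR adjusted p = 0.00133), a ratio of 0.821 with 95% limits of 0.780 and 0.864. Plin3, whose product moves between the cytosol and nascent droplets, lies on the minus strand of chromosome 17, from 56277476 to 56292873 (ENSMUSG00000024197). Plin3 read 14.8, 15.7 and 15.5 FPKM in WT against 14.6, 15.15 and 15.01 FPKM in labelled KO, and the groups overlapped. Plin3 had a log2 difference of -0.06 (SE 0.040, edgeR adjusted p = 0.424), and its ratio of 0.961 had 95% limits of 0.890 and 1.04.

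The share of Plin2 in the summed FPKM of both perilipins was lower in the libraries labelled KO. It was 90.9%, 90.7% and 90.9% in WT and 89.5%, 89.6% and 89.3% in labelled KO. The groups did not overlap, with means of 90.8% ± 0.158 and 89.4% ± 0.168 (SD, n = 3 each), and the difference was -1.4 percentage points. The exact two-sided permutation p was again 0.1, the smallest possible, and 0.1 adjusted over the 2 shares.

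Dgat1 encodes an enzyme that catalyses the last step of triglyceride synthesis, and it was not called. It lies on the minus strand of chromosome 15, from 76502015 to 76511951 (ENSMUSG00000022555). Dgat1 read 3.30, 3.46 and 3.07 FPKM in WT against 2.73, 3.41 and 2.95 FPKM in labelled KO. KO replicate 2 lay inside the WT range, and KO replicates 1 and 3 below it. Dgat1 had a log2 difference of -0.13 (SE 0.10, edgeR adjusted p = 0.497), and the ratio of 0.914 had 95% limits of 0.749 and 1.12. These limits, set at 4 degrees of freedom, only just take in the ratio of Fabp4, 0.764. Limits at more degrees of freedom would be narrower. Its depth was 707 to 812 estimated counts.

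**Figure D3:**
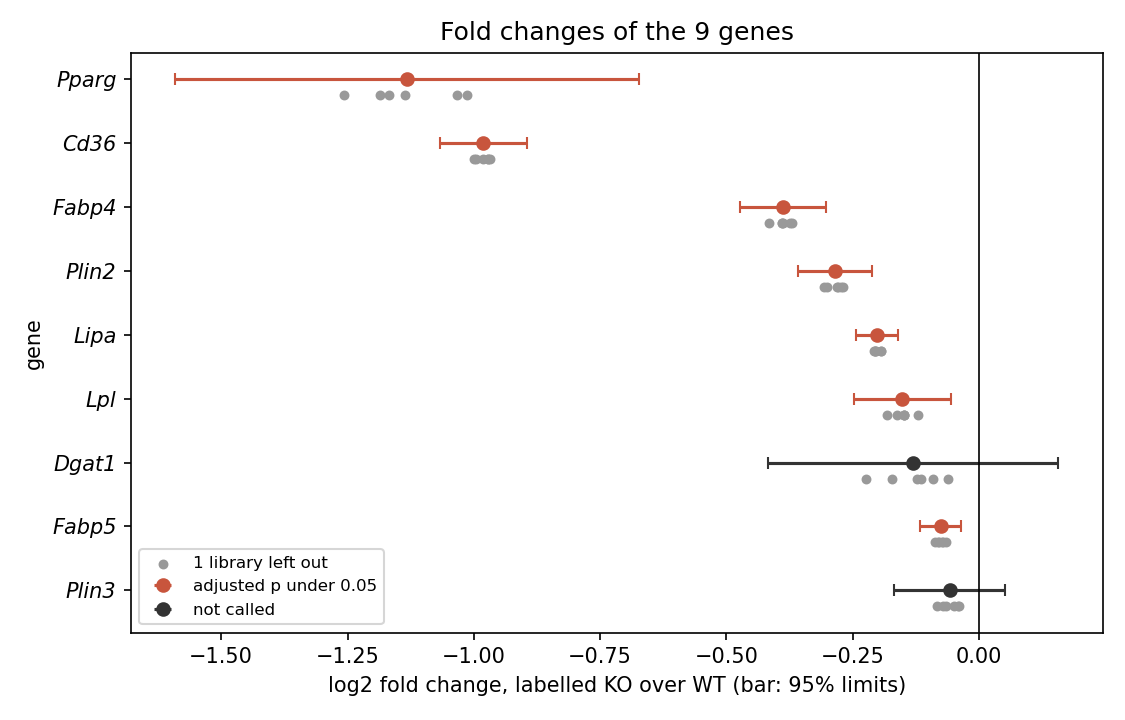
Log2 ratio of labelled KO to WT for each of the 9 genes (horizontal axis) with 95% limits; red points were called at an adjusted p under 0.05, black points were not, and grey points below each gene are the fits with 1 library left out. Pparg at -1.13 and Cd36 at -0.98 stand apart from the other 7 genes, which lie between -0.39 and -0.06.

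The order of the 9 genes by FPKM was Fabp5, Plin2, Lipa, Cd36, Fabp4, Lpl, Plin3, Dgat1 and Pparg in WT. The means ran from 439 FPKM for Fabp5 to 1.56 FPKM for Pparg. Cd36 and Fabp4, both with a mean of 46.6 FPKM in WT, overlapped between replicates and could not be ordered there, while every other pair of neighbours was separated. In the libraries labelled KO the order was the same except that Fabp4, at 36.0 FPKM, was above Cd36, at 23.9 FPKM, with no overlap. The ratio of Cd36 to Fabp4 was 0.951, 1.06 and 0.993 in WT and 0.654, 0.674 and 0.661 in labelled KO. The FPKM of the 9 genes summed to 837, 840 and 833 in WT and to 737, 752 and 741 in labelled KO. As a share of the estimated counts they took 0.393% to 0.399% in WT and 0.347% to 0.356% in labelled KO.

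**Figure D4:**
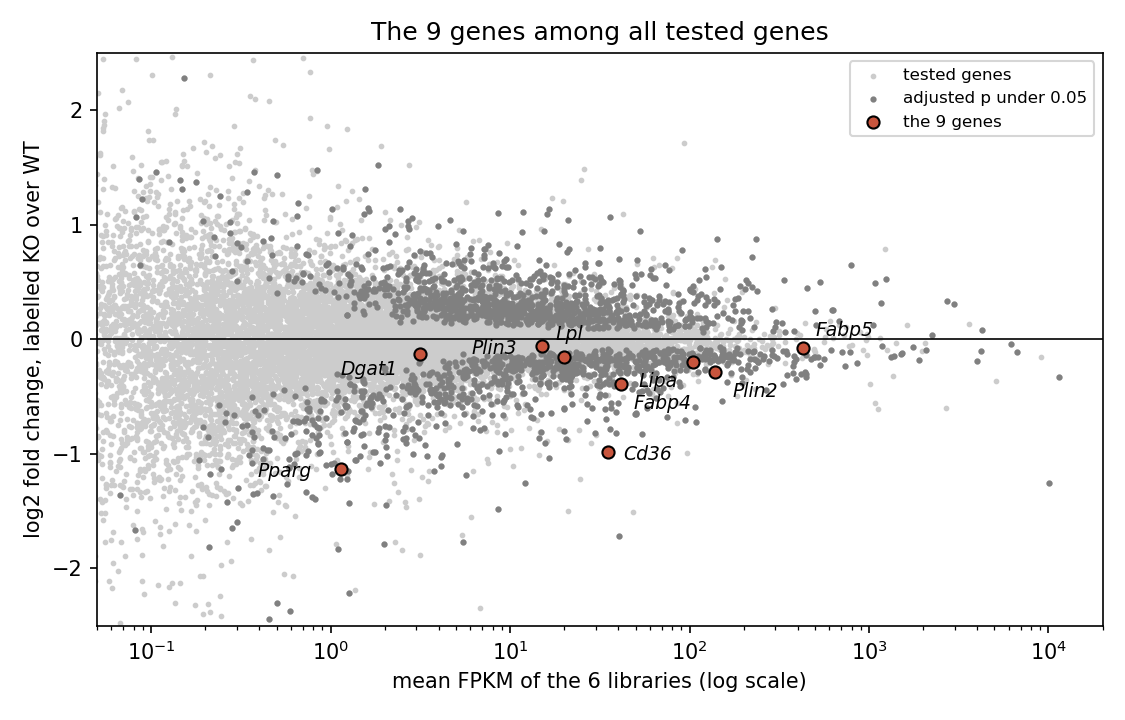
Log2 ratio of labelled KO to WT against the mean FPKM of the 6 libraries (log scale) for the tested genes (light grey), the called genes (dark grey) and the 9 genes (red); 621 tested genes lie outside the axes. Cd36 at -0.98 and Pparg at -1.13 are the lowest of the red points, and Fabp5, at the right, lies close to the line at 0.

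The markers of cells other than macrophages bear on these values because fat cells and capillary endothelium also express several of the 9 genes, and in bulk RNA fewer cells of a type cannot be told apart from less RNA per cell. The adipocyte markers Adipoq, Lep and Cfd had a count of 0 in all 6 libraries, and Plin1, Cidec and Retn had mean levels of at most 0.0417 FPKM in either group. Lipe, the only adipocyte marker tested, was at 7.87 FPKM in WT against 8.497 in labelled KO and was not called; the summed list read 7.65 to 8.19 FPKM in WT and 7.99 to 9.08 in labelled KO. The endothelial list summed to 7.73 to 8.12 FPKM in WT and 6.45 to 7.34 in labelled KO, with 1 of 6 tested markers called higher (Vwf) and 1 lower (Pecam1, from 4.01 to 3.33 FPKM). At an unadjusted edgeR p under 0.05 there were 3, Vwf higher and Pecam1 and Kdr lower. Kdr went from 2.985 to 2.47 FPKM with no overlap but was not called (edgeR adjusted p = 0.0762). The monocyte list also differed between the groups: 5 of 6 markers were called higher in the libraries labelled KO. The summed list read 185 to 192 FPKM in WT and 249 to 260 FPKM in labelled KO. Ccr2 was the marker not called, and the part of the monocyte markers in the lower levels of the 9 genes was not tested. Marrow stromal markers summed to 1.75 to 2.23 FPKM in WT and 1.83 to 2.08 FPKM in labelled KO (1 of 6 tested called higher, Dcn). Dendritic cell markers summed to 1.37 to 1.99 and 1.79 to 2.20 FPKM (edgeR called 0 of 4 tested, with 0 at an unadjusted p under 0.05), with Cd209a and Siglech at 0, and neutrophil markers to 59.1 to 64.6 and 50.5 to 60.8 FPKM (1 of 6 tested called higher, Mpo). Mpo was low, at 0.197 FPKM in WT against 0.553 in labelled KO. In that list 3 markers had an unadjusted edgeR p under 0.05. Besides Mpo these were S100a9 (35.5 FPKM in WT, 29.1 in labelled KO) and Ngp (9.24 and 7.665 FPKM), both lower.

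Most other genes of fatty acid handling were not called. Over 8 lists of such genes, 112 genes that are not among the 9 were tested, and 9 of them were called higher and 6 lower, with a median log2 fold change of 0.0011. That split was 9 higher and 10 lower with a filter at a mean of 1 FPKM, and 3 and 4 with the replicate block, so it gives the lists no direction. Over all tested genes 12.7% were called in either direction. Of 14 tested genes of fatty acid uptake and activation, 1 was called higher and 0 lower, with a median log2 fold change of -0.02. The balance of that list turned with DESeq2 (1 higher and 2 lower) and with a filter at a mean of 1 FPKM (1 higher and 3 lower). The gene called by edgeR was Slc27a4, a fatty acid transport protein, from 6.85 to 7.97 FPKM (log2 fold change 0.20), and dropping any 1 library ended the call (edgeR adjusted p from 0.0783 to 0.136). Fabp3, a fatty acid carrier known from heart, read 3.87, 4.63 and 3.65 FPKM in WT against 2.74, 1.97 and 2.87 FPKM in labelled KO. The groups did not overlap, but Fabp3 was not called (ratio 0.618, edgeR adjusted p = 0.0622), and it was named after its values were seen. Of 10 further tested genes of droplet coat and assembly, edgeR and DESeq2 each called 0, with 1 at an unadjusted edgeR p under 0.05 and a median of -0.03. Dropping KO replicate 2 gave 1 call in that list. In it, Hsd17b11, a droplet enzyme and the most abundant of them, read 45.5 FPKM in WT against 46.5 in labelled KO. Droplet coat genes typical of fat cells or muscle, such as Plin1, Plin4, Plin5, Cidea and Cidec, were too low to test.

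Triglyceride and sterol ester synthesis held 2 genes called lower and 0 higher among 13 tested, with a median of -0.09. Soat1, which esterifies cholesterol for storage in droplets, read 49.45, 50.08 and 49.46 FPKM in WT against 45.8, 45.3 and 45.4 FPKM in labelled KO (log2 fold change -0.14, edgeR adjusted p = 0.00285). The phosphatidate phosphatase gene Lpin1 went from 1.69 to 1.34 FPKM (log2 fold change -0.35, or -0.20 with limma on log2(FPKM + 1)), and dropping any library except KO replicate 1 ended the call (edgeR adjusted p from 0.0549 to 0.117). Among 15 tested lipases and cofactors, 2 were called higher and 0 lower, with a median of 0.14. Abhd5, the activator of the droplet triglyceride lipase, went from 4.06 to 4.99 FPKM (log2 fold change 0.28). Dropping any library except WT replicate 3 ended the call (edgeR adjusted p from 0.0554 to 0.0938), and 16.0% of its exonic bases are shared with an antisense gene of at most 14 estimated counts. Lmf2, annotated as lipase maturation factor 2, went from 7.68 to 9.29 FPKM (log2 fold change 0.26), and dropping any library except WT replicate 1 ended the call (edgeR adjusted p from 0.0711 to 0.0933).

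The lipoprotein receptors and lysosomal sterol carriers were split, with 2 called higher and 2 lower of 10 tested and a median of 0.06. Scarb1, a receptor for HDL, went from 6.75 to 7.88 FPKM (0.21), and dropping any 1 library ended the call (edgeR adjusted p from 0.0734 to 0.117). Npc2, which carries cholesterol out of the lysosome, went from 296 to 280.5 FPKM (-0.09, edgeR adjusted p = 0.00206). The scavenger receptor gene Marco went from 79.0 to 70.3 FPKM (-0.18), and dropping WT replicate 1 or 3, or KO replicate 1 or 2, ended the call (edgeR adjusted p from 0.0523 to 0.061).

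In the list of PPAR receptors, their partners and coregulators, and related transcription factors, 4 of 15 tested genes were called higher and 1 lower, with a median of 0.11. The coactivator gene Ppargc1b read 2.06, 2.32 and 1.85 FPKM in WT against 3.16, 3.55 and 3.05 FPKM in labelled KO (log2 fold change 0.63, edgeR adjusted p = 0.0137), a call that did not hold without WT replicate 1 (edgeR adjusted p = 0.05). The coactivator gene Ncoa2 went from 4.59 to 5.51 FPKM (0.25, edgeR adjusted p = 0.00441). Cebpb, a transcription factor of fat cell and macrophage differentiation, went from 32.5 to 41.8 FPKM (0.34), and dropping WT replicate 3 or a library labelled KO ended the call (edgeR adjusted p from 0.053 to 0.0566). Of the exonic bases of Cebpb, 20.7% are shared with Tmem189 on the opposite strand, which read 88.1 FPKM in WT against 63.3 in labelled KO, so its value is uncertain. The corepressor gene Ncor1 was called higher (0.16), and dropping any library except WT replicate 3 ended the call (edgeR adjusted p from 0.0897 to 0.125). The binding partner gene Rxrb was called lower (-0.22), and dropping any library except KO replicate 1 ended the call (edgeR adjusted p from 0.0692 to 0.0902). Ppara and the coactivator gene Ppargc1a were too low to test. Ncor1, Rxrb and Scarb1 were named after their values were seen.

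Fatty acid oxidation and synthesis held 1 called gene between them. Of 21 tested genes of beta-oxidation, edgeR called 0 (5 at an unadjusted p under 0.05) and DESeq2 called 1, with a median of -0.06. In that list, Acadl, the most abundant, read 23.6 FPKM in WT against 23.3 in labelled KO. Of 14 tested genes of fatty acid synthesis and desaturation, 1 was called lower and 0 higher, with a median of 0.0021. That gene was Me1, the malic enzyme that supplies NADPH for synthesis, at 1.225, 1.154 and 1.175 FPKM in WT against 0.439, 0.459 and 0.467 FPKM in labelled KO (log2 fold change -1.40, edgeR adjusted p = 0.00059; -0.59 with limma on log2(FPKM + 1)).

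**Figure D5:**
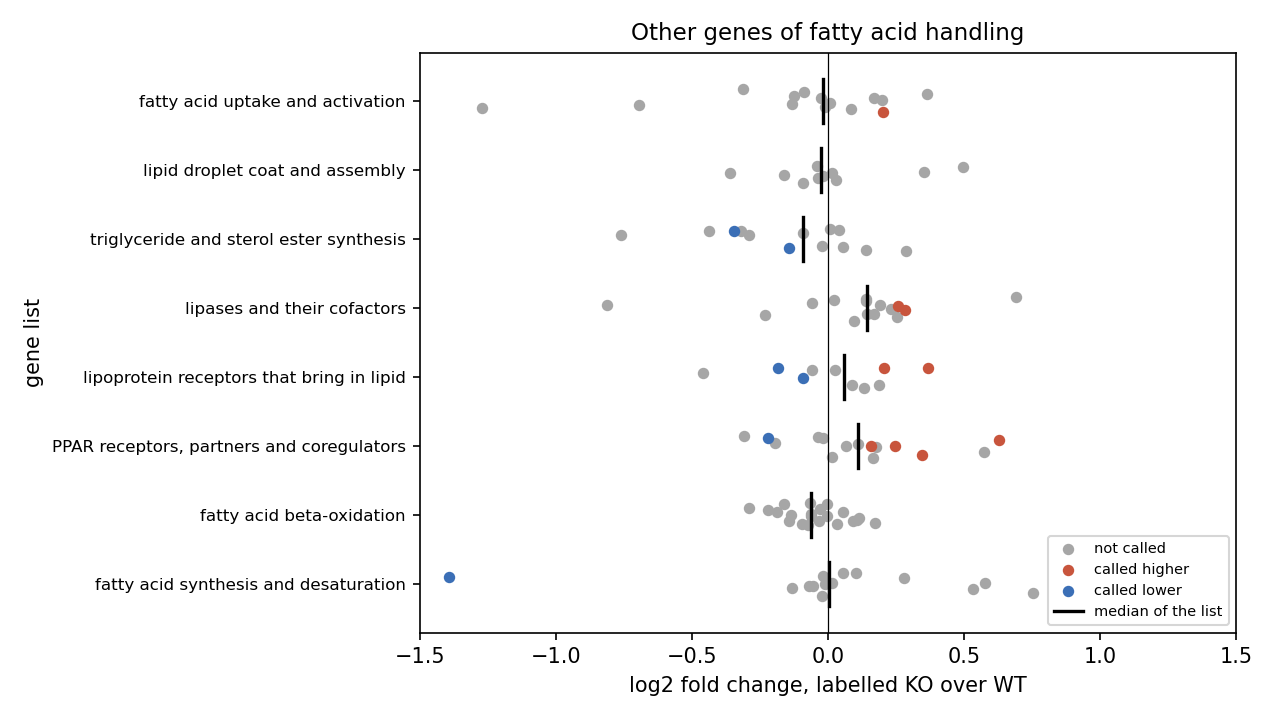
Log2 ratio of labelled KO to WT (horizontal axis) for the tested genes of each of 8 lists of fatty acid handling, the 9 genes left out; red points were called higher, blue points lower, grey points not called, and the black line is the median of the list. The medians lie between -0.09 and 0.14, and Me1 at -1.40 is the blue point on the far left.

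Genes with the most similar pattern were found for the 3 called genes with the largest changes, by the Euclidean distance between log2 ratios of the 6 FPKM values to each gene's own geometric mean, over 9114 genes with a mean of at least 2 FPKM. Nearest to Cd36 were the linker histone gene H1f2 (distance 0.133; 21.9 FPKM in WT against 10.8 in labelled KO) and the adaptor gene Blnk (distance 0.137; 11.5 and 5.89 FPKM). Nearest to Fabp4 were the membrane protein gene Basp1 (distance 0.0253; 55.6 and 43.0 FPKM) and the iron transporter gene Slc11a2 (distance 0.0509; 18.4 and 14.2 FPKM). Nearest to Pparg were the stress cytokine gene Gdf15 (distance 0.405; 5.51 and 2.74 FPKM) and the lysozyme gene Lyz2 (distance 0.415; 14190 and 6012 FPKM). The distances were largest for Pparg, whose own replicates also varied most.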

How the data were processed

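RNA was sequenced in 6 libraries, 3 WT and 3 labelled KO. The tools named are HISAT2 2.0.4, StringTie 1.3.4d and cutadapt 1.9 with the mm10 build, per the submitters' processing notes. Annotation release and strand were not given in the sources used here. Per the file headers, the authors deposited FPKM and, for each gene and library, a count. The deposited counts are whole numbers, but multiples of 4 make up 36.9% to 40.4% of those from 1 to 20, so they were treated as estimated counts and rounded.

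The main test was edgeR 4.0.16 (R 4.3.3; TMM, filterByExpr with a minimum count of 10 and total of 15, glmQLFit, glmQLFTest), with Benjamini-Hochberg adjustment over 16256 genes. Each standard error is the absolute log2 fold change over the square root of F, and 95% limits use t quantiles at 4 degrees of freedom. Alternatives were DESeq2 1.42.0, median-of-ratios factors, no filter, a mean of at least 1 FPKM, limma 3.58.1 on log2(FPKM + 0.1, 1 or 0.01), a replicate block and each library left out.

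The 9 genes and the lists were chosen with earlier results of these data known. Named are the 9 genes, Mettl3, the macrophage markers, up to 3 called genes of each list by adjusted p (or the most abundant where none was called) and the 2 nearest patterns of 3 genes. A gene of the lists is not reported here by name. No other gene of GENCODE M21 shares exonic bases with the 9 genes. The coordinates given for Lpl and Dgat1 differ from those of M21, so for them the check used another gene model. A processed pseudogene of Fabp5, Fabp5l2, had a count of 0 in every library.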

Additional observations from a re-analysis of the deposited data

How the results depend on the processing

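No change of the 9 genes reversed under the 14 alternatives, and 106 of 126 gene-by-setting results kept their side of the threshold; the other 20 are the lost calls of Fabp5 and Lpl, 10 each. Between 5 and 7 of the 9 genes were called in every setting, always lower. Each limma fit on FPKM called 5 of the 9, with Fabp5 and Lpl lost. Without 1 library the count over all genes was 1244 to 1339 in place of 2060, and that over the lists 7 to 9 in place of 15; these fits hold fewer samples. Fitting the replicate number as a block gave 1012 genes over the whole table, 7 list genes and 5 of the 9, with Fabp5 and Lpl lost (edgeR adjusted p = 0.0704 and 0.0717). The values gave no sign that the numbers pair the samples: correlations of same-numbered deviations were -0.0205, -0.0144 and 0.0153. Such correlations cannot show that the samples were prepared apart. The share of Fabp4 in both carriers changed by -2.07 points from estimated counts, which are not per length, in place of -1.72. Of 266 results of named list genes, 74 lost their call and 0 reversed. The share called higher over all genes stayed between 53.3% and 59.4%, but that over the list genes, 60.0%, ranged from 42.9% (replicate block, and without KO replicate 3) to 66.7% (without WT replicate 1), with 47.4% under the FPKM filter. Depth limits Pparg and Dgat1 most, at 149 to 812 estimated counts.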

Other observations

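The deposited annotation places 6 of the 9 genes, Cd36, Fabp4, Fabp5, Lpl, Plin2 and Pparg, in the KEGG pathway of PPAR signalling. This annotation was looked up after the values of the 9 genes were seen. Of the 45 other tested genes of that pathway, 2 were called higher in labelled KO and 3 lower, with a median log2 fold change of -0.0091. Besides Slc27a4, Rxrb and Me1, these were Cyp27a1, a sterol hydroxylase gene (28.2 FPKM in WT against 32.5 in labelled KO, log2 fold change 0.19), and Pltp, a phospholipid transfer protein gene (258 and 238 FPKM, -0.13, edgeR adjusted p = 0.00211). Dropping any library except KO replicate 1 ended the call of Cyp27a1 (edgeR adjusted p from 0.0685 to 0.115). Pltp shares 19.3% of its exonic bases with Ctsa on the opposite strand, at 176 and 178 FPKM, and both genes were named after their values were seen. Of 68 other tested genes that the same annotation places at the lipid droplet, as it does Plin2 and Plin3, 7 were called higher and 7 lower, with a median of 0.01.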
